A study of Homo sapiens with 9 samples.

Results

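Gene expression after knockdown of NUSAP1 was examined in PANC1, a cell line from a human pancreatic ductal adenocarcinoma. The comparison used 6 of 9 RNA sequencing libraries and 12545 of 60612 genes, those that reached 1 FPKM in at least 3 of the 9 libraries. FPKM counts sequenced fragments per kilobase of a transcript and corrects for the size of the library. The 3 knockdown libraries came from cells transfected with a small interfering RNA (siRNA) against NUSAP1. In the 3 overexpression libraries the cells carried a plasmid for flag-tagged NUSAP1, and they are given only beside knockdown values. The 3 control libraries came from wild-type cells labelled as having no treatment. The labels name no control siRNA and no mock transfection, so the loss of NUSAP1 and the transfection with an siRNA cannot be told apart. They also do not say whether the replicates were separate cultures, so p-values here set differences against the spread of these samples alone.

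NUSAP1 encodes a protein that binds and bundles microtubules around the chromosomes in mitosis, and its transcript is usually most abundant in dividing cells. An siRNA is a short RNA duplex. When one of its strands is loaded into an Argonaute protein, it directs cleavage of transcripts that match it along its length. A loaded strand can also lower other transcripts whose 3′ untranslated regions (3′ UTRs) match its seed, the bases near its 5′ end, in the way a microRNA does. The series title links NUSAP1 to LDHA, the lactate dehydrogenase subunit, and to glycolysis, the pathway that turns glucose into pyruvate.

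Total counts were 57518565 to 69764307 in the knockdown libraries and 57115172 to 73386227 in the control libraries. Markers of a ductal line were present in both groups. KRT18 lay at 73.2 to 86.04 FPKM after knockdown and 56.03 to 80.8 in control, and SOX9 at 32.2 to 33.4 and 34.7 to 37.5, while KRT7 had only 0.313 to 0.479 FPKM after knockdown and 0.533 to 0.639 in control, and CFTR was at 0 in these 6 libraries. Fitted with a term for the replicate number (a block, since knockdown and control libraries of the same number deviated together), KRT18 had an edgeR adjusted p of 0.0369, against 0.302 without the block. Some control libraries carried transcripts of another cell type. The summed FPKM of 18 hepatocyte genes was 0.606, 0.369 and 0.452 in knockdown 1, 2 and 3, against 0.736, 27.7 and 33.7 in control 1, 2 and 3. The albumin gene ALB reached 4.32 and 4.85 FPKM in control 2 and 3. LYZ, the lysozyme gene of myeloid cells, had an FPKM of 0 in every knockdown library and 1.54, 2.34 and 3.64 in control 1, 2 and 3. Other myeloid or leukocyte markers did not follow LYZ. CD68 lay at 17.1 to 19.5 FPKM after knockdown and 10.7 to 12.5 in control. CD14 lay at 0.137 to 0.334 and 0.121 to 0.270, and PTPRC reached at most 0.0549 in these 6 libraries. The part of the hepatocyte transcripts and of LYZ in the results was not tested. Overexpression 1, 2 and 3 had summed hepatocyte values of 22.9, 0.936 and 26.7 FPKM. A fit without the libraries rich in hepatocyte transcripts leaves only control 1 and overexpression 2 beside the knockdown libraries. Of the 1813 genes that passed with all libraries, described below, 1784 had a log2 fold change in this fit within 0.5 of their value with all libraries. That limit is wide beside the changes themselves, whose median was -0.63 for the lower genes and 0.48 for the higher. With 1 control left, the fit cannot show how far the calls rest on the other libraries. Both fits share the knockdown libraries and control 1. Mitochondrial transcripts made up 8.21%, 8.41% and 9.71% of the counts in knockdown 1, 2 and 3, and 13.97%, 11.2% and 10.07% in control 1, 2 and 3. In bulk RNA, fewer cells of a type and less RNA per cell cannot be told apart.

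After knockdown the targeted transcript was lower in every library. NUSAP1 (ENSG00000137804, chromosome 15, bases 41320794 to 41381050, plus strand, GRCh38) lay between 11.6 and 13.8 FPKM in the knockdown libraries, against 30.9 to 42.1 FPKM in the control libraries. NUSAP1 was 2.89 times lower, and its locus overlaps OIP5 on the opposite strand. Of 12545 genes tested, 1813 (14.5%) changed at an edgeR adjusted p below 0.05, 881 (7.02%) of them higher and 932 (7.43%) lower after knockdown. Among these, 90 (0.717%) were at least 2-fold higher and 157 (1.25%) at least 2-fold lower. The FPKM of knockdown and control libraries did not overlap for 4495 of all 12545 genes (35.8%), 19.3% higher and 16.5% lower. Genes named for the largest changes were picked among those without overlap. With limma on values rescaled to a fixed sum per library (TPM), where the median of all genes shifts by 0.14 on the log2 scale, 1414 genes were higher and 449 lower. DESeq2 called 1354 higher and 1413 lower. The blocked fit called 1087 and 1045 with all libraries, and 609 and 783 with knockdown and control libraries alone. Counts within the gene lists below stand beside these counts over all genes. With each of the 6 libraries left out in turn, 962 to 1410 genes passed. The count was 962 without knockdown 1, 1116 without control 1, 1174 without control 2 and 1060 without control 3. All 1813 genes kept their direction in these 6 fits, and 771 of them (42.5%) passed in every one, 320 of the 881 higher and 451 of the 932 lower.

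The genes that fell furthest encode proteins of varied function, among them enzymes, a membrane protein insertase subunit and an RNA-binding protein. OAT, the mitochondrial aminotransferase that links ornithine to glutamate and proline, had 8.64, 9.77 and 10.1 FPKM in the knockdown libraries, against 32.5, 35.8 and 34.7 FPKM in the control libraries. Every knockdown library lay below every control library, a 3.63-fold lower level (log2 fold change -1.86 ± 0.10, SE, edgeR adjusted p = 5.69e-05). GLO1, glyoxalase I, which clears the glycolysis by-product methylglyoxal, had 29.5, 28.5 and 27.5 FPKM after knockdown and 80.6, 83.6 and 85.9 FPKM in control. The groups did not overlap and the spread within each was narrow, so GLO1 had one of the 2 smallest adjusted p-values of all genes (log2 fold change -1.56 ± 0.06, adjusted p = 1.45e-05). The other was CD24, a surface glycoprotein, with a log2 fold change of -1.82.

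MMGT1, a subunit of the complex that inserts membrane proteins into the endoplasmic reticulum, had 3.52, 3.86 and 3.25 FPKM after knockdown and 13.1, 14.3 and 13.6 FPKM in control (log2 fold change -1.96 ± 0.08, adjusted p = 2.23e-05). TAF15, an RNA-binding protein of the FET family, had 11.5, 13.4 and 12.4 FPKM after knockdown and 41.0, 40.9 and 41.4 FPKM in control (log2 fold change -1.74 ± 0.12, adjusted p = 0.000134), at a locus where AP2B1 and RASL10B are also annotated. For both genes the knockdown and control libraries were far apart and did not overlap, as the rule for naming the largest changes required. SPTLC1, a subunit of the enzyme that starts sphingolipid synthesis, fell by 1.51 on the log2 scale. RDH11, a retinol dehydrogenase, fell by 1.54 and TRUB1, a pseudouridine synthase of tRNA and mRNA, by 1.52. ZDHHC9, which attaches palmitate to RAS proteins, PIGU, a subunit of the enzyme that adds lipid anchors to proteins, and GINS1, a subunit of the replicative helicase, had changes of -1.31, -1.52 and -1.42. CACNG7, of a family of calcium channel subunits, fell by 1.98 and CMTM8, a membrane protein, by 1.73.

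Other genes with large decreases had less even libraries. TUBB6, a beta tubulin at a locus overlapping AFG3L2, had 7.03, 8.11 and 6.95 FPKM after knockdown, against 36.5, 37.6 and 9.62 FPKM in control 1, 2 and 3. Control 3 thus lay near the knockdown level (log2 fold change -1.94 ± 0.48, adjusted p = 0.0319), and the adjusted p of TUBB6 was 0.0894 without control 1, 0.0876 without control 2, 0.103 without knockdown 1, 0.0780 without knockdown 2 and 0.0820 without knockdown 3. BTBD3, a BTB domain protein with a log2 fold change of -1.99 ± 0.55 (adjusted p = 0.0450), did not pass without any 1 of the 6 libraries (adjusted p = 0.0668 to 0.137). The log2 fold change of BCL2L11, the death-promoting protein BIM, was -1.88 ± 0.44 (adjusted p = 0.0253). It did not pass without control 1 (0.0655), control 3 (0.0602), knockdown 1 (0.0715) or knockdown 2 (0.0604). HIF1A, which encodes an oxygen-regulated transcription factor, had a log2 fold change of -0.56 (adjusted p = 0.0399), and did not pass without control 1 (0.0916), control 2 (0.103), control 3 (0.0648), knockdown 1 (0.0877) or knockdown 3 (0.0710).

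**Figure D1:**
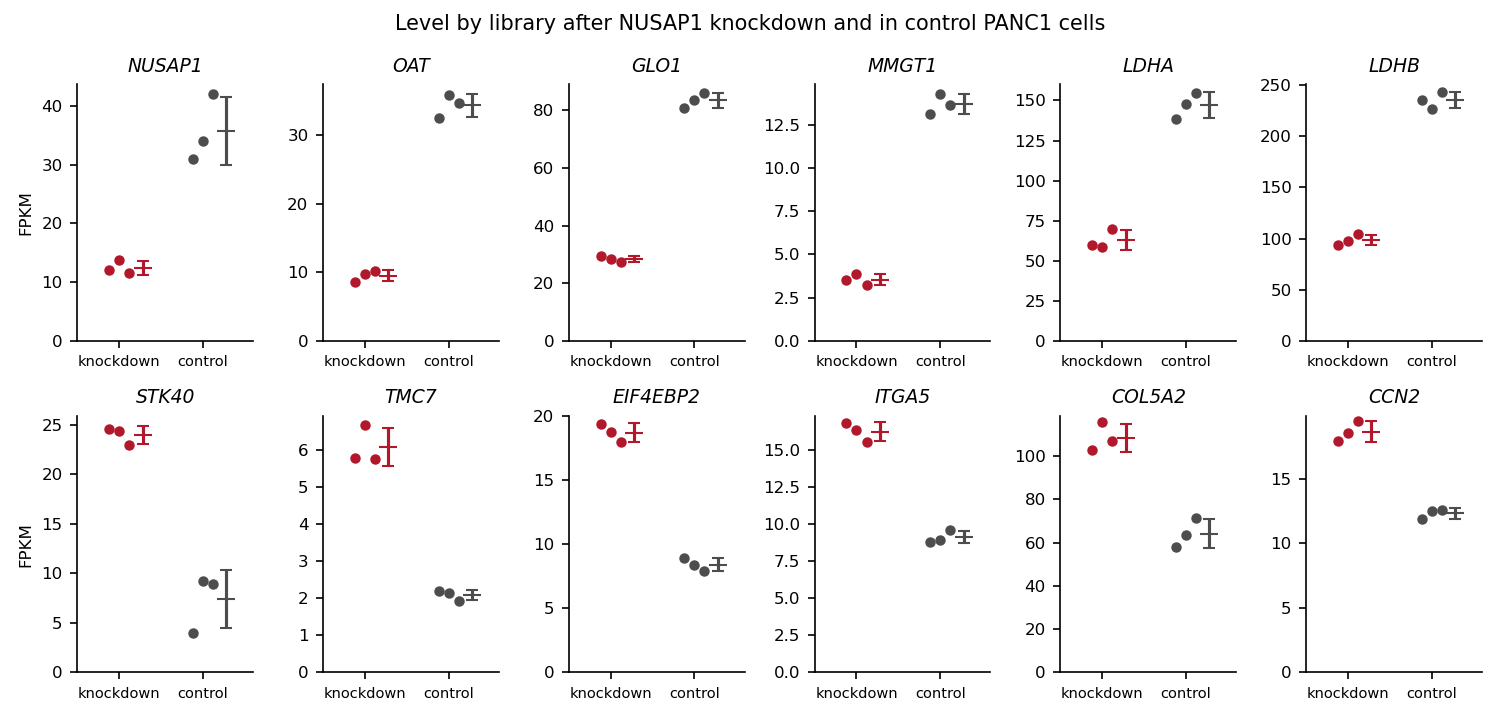
Level of 12 genes in FPKM (vertical axis, from 0) in each of the 3 knockdown libraries (left, red) and 3 control libraries (right, grey), with the mean and SD beside the points. The upper 6 genes were lower and the lower 6 higher after knockdown, with no overlap between groups; control 1 of STK40 lies apart from the other two controls.

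The overexpression libraries allow a side-by-side look, since both perturbations were set against the same controls and were tested against each other directly. In that direct test of knockdown with overexpression, 6270 of 12545 genes (50.0%) differed, and 25.5% of all were lower after knockdown. Overexpression itself changed 53.4% of genes against control, 27.4% higher and 26.0% lower. For GLO1 the log2 fold change was -1.56 after knockdown and -0.03 after overexpression, and knockdown lay below overexpression (adjusted p = 6.18e-07). MMGT1 stood at -1.96 and -0.09 (1.52e-06), TAF15 at -1.74 and 0.01 (9.69e-06) and SPTLC1 at -1.51 and 0.09 (1.47e-06). RDH11, TRUB1 and ZDHHC9 had values of 0.02, 0.10 and -0.04 after overexpression. Each of these was also lower after knockdown than after overexpression. NCEH1, a cholesterol ester hydrolase, had 10.1, 10.5 and 9.96 FPKM after knockdown and 25.0, 25.0 and 24.5 FPKM in control, a log2 fold change of -1.30, and it rose by 1.32 after overexpression. RAB21, a small GTPase of early endosomes, had values of -1.46 and 0.77, and SDC4, the proteoglycan syndecan 4, of -1.29 and 0.46. CANX, the endoplasmic reticulum chaperone calnexin, had -0.90 after knockdown and 0.18 after overexpression. Other genes that fell after knockdown were also below control after overexpression. CD24 had -1.82 and -2.02, CACNG7 -1.98 and -1.03, BCL2L11 -1.88 and -1.49 and LDHA -1.24 and -0.86.

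**Figure D2:**
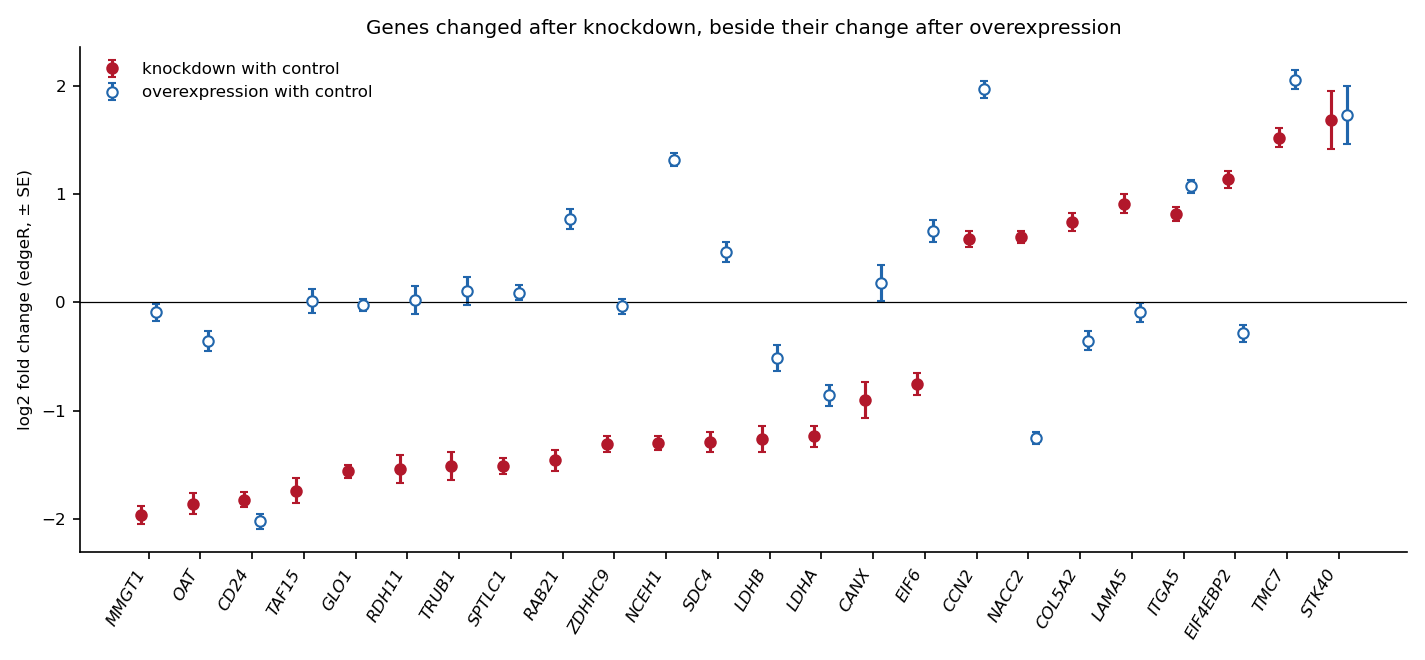
Log2 fold change (vertical axis, edgeR, ± SE) against the shared control libraries of 24 named genes after knockdown (filled red) and after overexpression (open blue). For MMGT1, TAF15, GLO1, RDH11, TRUB1, SPTLC1 and ZDHHC9 the overexpression value lies between -0.09 and 0.10, while CD24, LDHA and STK40 passed in the same direction in both.

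The genes that rose after knockdown were led by genes of varied function. STK40, a pseudokinase, had 24.6, 24.4 and 22.9 FPKM in the knockdown libraries, against 4.01, 9.23 and 8.97 FPKM in the control libraries. Its log2 fold change was 1.69 ± 0.27 (adjusted p = 0.00575), with control 1 below the other 2 controls. TMC7, a transmembrane channel-like protein, had 5.79, 6.68 and 5.76 FPKM after knockdown and 2.19, 2.13 and 1.94 FPKM in control, a 2.87-fold higher level with no overlap. EIF4EBP2, which holds back cap-dependent translation by binding eIF4E, had 19.4, 18.8 and 17.98 FPKM after knockdown and 8.94, 8.37 and 7.92 FPKM in control (log2 fold change 1.14 ± 0.08, adjusted p = 0.000162). In the overexpression libraries EIF4EBP2 instead had a log2 fold change of -0.29.

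CHD2 and INO80, which remodel chromatin, rose by 1.14 and 1.13 on the log2 scale. PNRC2, which takes part in mRNA decay, rose by 1.11, GXYLT1, which extends sugars on Notch receptors, by 1.26, MIEF1, a receptor for the mitochondrial fission enzyme at a locus overlapping MIURF, by 1.27 and WDR62, a spindle pole protein, by 0.77. MYPN, known as a sarcomere protein, rose by 0.92. Several of the largest increases belong to families of near-identical copies whose reads the counting could split. NBPF12 rose by 1.81, NBPF26 by 1.45, NPIPB3 by 1.54 and NPIPB12 by 1.34, so their values are uncertain. NPIPB5 had a log2 fold change of 1.66 but an adjusted p of 0.0512 without control 3.

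Both lactate dehydrogenase subunits and a few other enzymes around pyruvate fell after knockdown. Of 20 tested genes that set the fate of pyruvate and lactate, 7 fell and none rose, with a median log2 fold change of -0.11 beside 0.02 for all genes tested. In TPM the median of this list was 0.03, with 4 lower and 2 higher. After overexpression 12 of the 20 were lower and none higher (median -0.51), beside 26.0% and 27.4% of all genes tested. LDHB, the subunit that favours lactate as substrate, had 94.2, 97.6 and 104 FPKM after knockdown and 235, 227 and 243 FPKM in control (log2 fold change -1.27 ± 0.12, adjusted p = 0.000536). LDHA, with a change of -1.24, fell by a like amount, and its processed pseudogenes may share its reads. PDK1, a kinase that switches off pyruvate dehydrogenase and was named after its values were seen, had 0.766, 0.806 and 0.551 FPKM after knockdown and 1.77, 2.05 and 1.73 FPKM in control (log2 fold change -1.40). ME2, the mitochondrial malic enzyme that makes pyruvate, fell by 0.92. These 4 passed in each of the 6 fits that leave out 1 library, and the other 3 did not. DLAT, a pyruvate dehydrogenase subunit, had an adjusted p of 0.0551 without knockdown 1. PDK2, a kinase related to PDK1, had 0.0658 to 0.0706 without control 1, control 3, knockdown 1 or knockdown 2, and PDK3, another, 0.0762 to 0.122 without control 1, control 2, knockdown 1 or knockdown 3.

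In the glycolysis list 4 of 19 genes fell and none rose (median -0.11, and 0.04 in TPM, with 2 lower and 1 higher). HK2, a hexokinase that traps glucose in the cell, had 2.33, 2.49 and 2.36 FPKM after knockdown and 3.67, 3.95 and 4.54 FPKM in control, a log2 fold change of -0.77. ALDOC, an aldolase, fell by 0.64. PFKM and PFKL, of phosphofructokinase, had -0.35 and -0.34. PFKM did not pass without any 1 of the 6 libraries (adjusted p = 0.0700 to 0.121), nor did PFKL except without control 2 (0.0795 to 0.121). After overexpression HK2 stood at 0.48 and ALDOC at -2.77. Among enzymes that clear methylglyoxal and other aldehydes, 5 of 10 fell and none rose, with a median of -0.48 (-0.31 in TPM). Beside GLO1, ALDH1A3, which makes retinoic acid, fell by 0.95 and ALDH7A1, an aldehyde dehydrogenase, by 0.57. AKR1B1, aldose reductase, fell by 0.63 and AKR1A1 had -0.57, with an adjusted p of 0.0540 to 0.0886 without control 1, control 3, knockdown 1 or knockdown 2. After overexpression 8 of these 10 enzymes were lower and none higher (median -0.57).

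Genes of ornithine, proline and glutamate metabolism moved in both directions. Of 21 tested, 6 fell and 3 rose (median -0.14, and 0.00 in TPM). ALDH18A1, which makes the proline and ornithine precursor that OAT also handles, had 10.1, 10.3 and 11.4 FPKM after knockdown and 20.6, 22.7 and 22.6 FPKM in control (log2 fold change -1.06 ± 0.09, adjusted p = 0.000384). GLUD1, glutamate dehydrogenase at a locus overlapping SHLD2, fell by 0.74. Further down the same network, and named after their values were seen, ASS1, argininosuccinate synthase, fell by 0.87 and SLC7A5, a carrier of large amino acids, by 0.58. The polyamine enzymes went the other way. ODC1, which turns ornithine into putrescine, had 146, 138 and 162 FPKM after knockdown and 88.4, 92.0 and 94.6 FPKM in control, a log2 fold change of 0.68, and SMS, spermine synthase, rose by 0.51.

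Genes of mitochondrial energy metabolism were called in both directions. Without the block, respiratory chain genes were called no more often than the 7.02% higher and 7.43% lower of all genes tested. In the tricarboxylic acid cycle 4 of 17 genes fell and 2 rose (median 0.02), in the blocked fit 5 fell and 4 rose, and in TPM 1 fell and 6 rose. SUCLG2, a succinyl-CoA ligase subunit, fell by 0.59 and SDHD, a membrane anchor of succinate dehydrogenase, rose by 0.50. Of 32 nuclear-encoded respiratory chain genes 2 rose and 1 fell, or 2 and 2 in the blocked fit. The 13 mitochondrially encoded genes had a median of -0.42 (-0.28 in TPM), with 2 lower, MT-CO2 at -0.56 and MT-CO3 at -0.59. Neither passed without knockdown 1 (adjusted p = 0.0717 and 0.0877) or without knockdown 2 (0.0511 and 0.0733), none passed with the block on knockdown and control libraries alone, and the share of mitochondrial counts given above moves with this list, and its part in it was not tested.

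**Figure D3:**
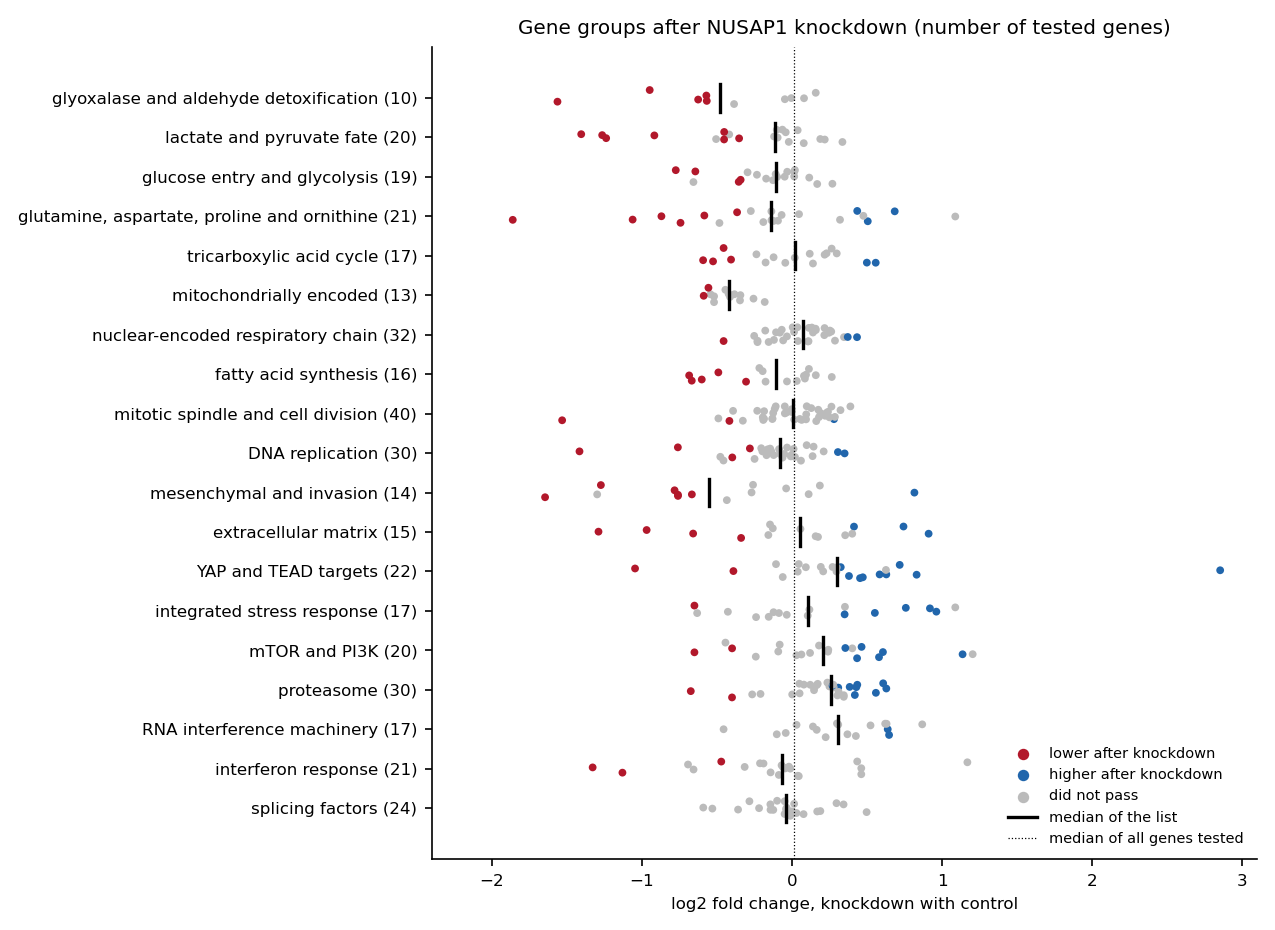
Log2 fold change after knockdown (horizontal axis) of every tested member of 19 gene groups, with red points lower, blue points higher and grey points not past the test. Thick bars are group medians and the dotted line the median of all genes tested. The medians of the aldehyde detoxification, mesenchymal and mitochondrially encoded groups lie furthest left of it. Those of the RNA interference machinery, YAP and TEAD targets and proteasome lie furthest right. ANKRD1, a YAP and TEAD target, lies at 2.85.

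Genes of mitosis, the process in which NUSAP1 acts, mostly did not pass the test. Of 40 tested members, 2 fell and 1 rose, with a median of 0.01 (0.14 in TPM, the same shift as all genes), in the blocked fit 2 fell and 4 rose, and with the block on knockdown and control libraries alone 2 fell and none rose. DESeq2 called 3 lower and 7 higher, beside 1413 and 1354 over all genes. NUSAP1 was itself one of the 2. KIF23, a motor of cytokinesis, had 11.7, 13.4 and 9.99 FPKM after knockdown and 14.8, 16.4 and 15.0 FPKM in control (log2 fold change -0.42, adjusted p = 0.0304). CDCA8, a subunit of the chromosomal passenger complex, had a change of 0.28 (adjusted p = 0.0465). The adjusted p of KIF23 was 0.0543 to 0.0938 and that of CDCA8 0.0802 to 0.138 without single libraries, knockdown 2 excepted for both. None of 11 genes of nuclear import and Ran passed edgeR's test, with 3 at an unadjusted p below 0.05, while DESeq2 called 2 higher and 0 lower, and in the blocked fit 1 rose and 0 fell. In DNA replication 4 of 30 fell and 2 rose, beside 7.43% and 7.02% of all genes tested. The list was led by GINS1 and by RRM2, the small subunit of ribonucleotide reductase, at -0.76. CCNE2, a cyclin of the entry into S phase, had 1.75, 1.91 and 0.856 FPKM after knockdown and 3.42, 4.04 and 3.81 FPKM in control. The log2 fold change of CCNE2 was -1.34, and INTS8 and NDUFAF6 overlap it on the opposite strand.

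Targets of YAP and TEAD, a coactivator and its transcription factors in the Hippo pathway that drive growth and adhesion genes, were more often higher than lower. Of 22 tested, 9 rose and 2 fell, with a median of 0.30 (0.44 in TPM). CCN2, a matrix-associated growth factor, had 17.9, 18.6 and 19.5 FPKM after knockdown and 11.8, 12.5 and 12.6 FPKM in control. AJUBA, an adaptor that restrains the Hippo kinases, rose by 0.72 and NT5E, the ectoenzyme CD73, by 0.47. ANKRD1 and AXL, named after their values were seen, rose by 2.85 and 0.33. These 5 genes passed in each of the 6 fits with 1 library left out, and the remaining 4 that rose and both that fell did not. After overexpression CCN2 stood at 1.97 and ANKRD1 at 6.88, and both were lower after knockdown than after overexpression (adjusted p = 4.84e-06 and 0.000237). Among genes of the pathway itself TEAD4 rose by 0.69, while WWTR1, which encodes the YAP relative TAZ, fell by 0.51. AMOT, which binds YAP, fell by 0.69.

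Cell-surface and matrix genes went in both directions. In the mesenchymal and invasion list 6 of 14 fell and 1 rose (median -0.55, and -0.39 in TPM). LOXL2, an enzyme that crosslinks collagen, had 7.81, 8.51 and 8.76 FPKM after knockdown and 19.8, 19.2 and 21.1 FPKM in control (log2 fold change -1.27 ± 0.08, adjusted p = 0.000134), at a locus where ENTPD4 is also annotated. The matrix protease MMP2 fell by 0.78. The next 3 were named after their values were seen: the fibronectin gene FN1 fell by 1.65, at an FPKM of 0.308 to 0.439 after knockdown and 0.832 to 1.301 in control, the protease gene MMP14 by 0.67 and TGFBI, a matrix protein induced by TGF-beta, by 0.76. ITGA5, the fibronectin receptor subunit, was the 1 that rose, with 16.8, 16.4 and 15.6 FPKM after knockdown and 8.82, 8.96 and 9.60 FPKM in control.

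In the extracellular matrix list 4 of 15 fell and 3 rose, beside 7.43% and 7.02% of all genes tested. SDC4 fell by 1.29 and COL1A1, of type I collagen, by 0.66. LAMA5, a laminin chain at a locus overlapping ADRM1, rose by 0.91. COL5A2, of type V collagen, named after its values were seen, had 103, 116 and 107 FPKM after knockdown and 57.8, 63.5 and 71.3 FPKM in control, a log2 fold change of 0.74 against -0.35 after overexpression. The tight junction gene MARVELD2 rose by 0.91. KRT19, a duct keratin, had 2.76, 3.01 and 3.32 FPKM after knockdown and 5.65, 5.42 and 4.88 FPKM in control (log2 fold change -0.82, adjusted p = 0.0129), with an adjusted p of 0.0523 without knockdown 1.

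Genes of stress, growth and protein turnover passed in both directions, and most did not pass. In the integrated stress response, the programme that slows translation, 5 of 17 rose and 1 fell (median 0.11). PPP1R15A, which ends that block, had 17.7, 17.5 and 17.6 FPKM after knockdown and 8.998, 8.42 and 9.42 FPKM in control, and SESN2, a leucine sensor that restrains mTORC1, rose by 0.92. DDIT4, another inhibitor of mTORC1, fell by 0.65. These 3 passed with each of the 6 libraries left out in turn, and 2 of the list rose without control 1, control 2 or control 3. Of 20 mTOR and PI3K genes, 6 rose and 2 fell (median 0.21; 3 and 2 without control 3, without knockdown 1 or with the block on knockdown and control libraries alone), including EIF4EBP2, the kinase gene MTOR (0.61) and RPTOR, its partner in mTORC1 (0.43). Proteasome subunits were higher in 9 of 30 cases and lower in 2, with a median of 0.26 (0.40 in TPM) in the blocked fit these numbers were 14 and 3, and in TPM 15 and 0. With each of the 6 libraries left out in turn 4 of the 9 and none of the 2 passed throughout, and 4 rose without control 1, control 2 or control 3. PSMC2, an ATPase of the proteasome cap at a locus overlapping DNAJC2, rose by 0.61, PSMB6, a core subunit, by 0.63 and PSMD14, which removes ubiquitin, by 0.42. Of 28 translation factors 2 rose and 2 fell, beside 7.02% and 7.43% of all genes tested. Those that fell, EIF6 (-0.75) and EIF4G1 (-0.56), were higher after overexpression (0.66 and 0.47).

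Of 16 fatty acid synthesis genes 5 fell and none rose (median -0.10, and 0.03 in TPM). SCD, which puts the first double bond into saturated fatty acids, had 267, 262 and 278 FPKM after knockdown and 393, 416 and 404 FPKM in control, a log2 fold change of -0.60. FADS2, a desaturase at a locus overlapping FEN1 and FADS1, fell by 0.69, and SREBF1, which switches on lipid synthesis genes and overlaps RAI1 on the opposite strand, had a change of -0.49. In the overexpression libraries their changes were -2.02 and -2.25. Of 23 cholesterol genes 2 rose and 1 fell, beside 7.02% and 7.43% of all genes tested. In the blocked fit 4 rose and 1 fell. Of 15 clock genes 3 rose and 2 fell, beside 7.02% and 7.43% of all genes tested. The repressors NR1D1 and PER2 stood at 0.76 and 0.78, and the loci of NR1D1 and THRA overlap.

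None of 9 sensors of double-stranded RNA passed edgeR's test, with 1 at an unadjusted p below 0.05, while DESeq2 called 0 higher and 0 lower (median 0.02). Of 21 interferon response genes none rose and 3 fell, beside 7.02% and 7.43% of all genes tested. The 3 were IFITM2 at -1.13, IFITM1 at -1.33 and IFIT1 at -0.47. In the blocked fit 1 rose and 3 fell, and with the block on knockdown and control libraries alone 1 fell. IFITM1 and IFITM2 are near-identical neighbours and may share reads, and LIPA overlaps IFIT1 on the opposite strand. IFITM1 had an adjusted p of 0.0516 without control 1, and IFIT1 of 0.0561 without control 3. Of 17 genes of the RNA interference machinery 2 rose and none fell, beside 7.02% and 7.43% of all genes tested. The median was 0.31 (0.44 in TPM). In the blocked fit 9 rose, where 1087 of all 12545 genes did. AGO2, the Argonaute that cleaves its targets, had 6.17, 6.97 and 5.58 FPKM after knockdown and 4.19, 4.25 and 3.43 FPKM in control (log2 fold change 0.64, adjusted p = 0.00972). AGO4 had a change of 0.65 (adjusted p = 0.0402), which did not pass without any 1 of the 6 libraries (0.0508 to 0.112).

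Both of the following genes rose after knockdown and fell after overexpression, in comparisons that share the control libraries. NACC2, a transcriptional repressor, had 50.1, 52.0 and 48.5 FPKM after knockdown and 31.4, 34.1 and 32.7 FPKM in control, a log2 fold change of 0.60 against -1.25 after overexpression. MKNK2, a kinase of the cap-binding factor eIF4E, had 33.0, 19.96 and 23.3 FPKM after knockdown and 12.1, 13.5 and 12.9 FPKM in control, with changes of 0.97 and -1.11.

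The 3′ UTRs of genes that fell after knockdown held particular 7-base words more often than those of other genes. In GENCODE 29, 10706 of the tested genes have a 3′ UTR, and for each gene the longest one was searched on the transcript strand for all 16384 heptamers, ranked by their share among the 888 lower genes minus their share among all. The rank used the same genes, so the shares are a description with no test. The first was GTCTTCA, in 27.8% of genes that fell and 9.88% of genes that rose, against 14.6% of all. It was in 40.4% of genes at least 2-fold lower and in 12.5% of genes lower after overexpression. AGTCTTC, which overlaps it by 6 bases, was in 24.3% of genes that fell, 7.00% of genes that rose and 12.5% of all. The second in rank, TGTGGCT, was in 31.6% of genes that fell, 36.2% of those at least 2-fold lower, 17.3% of genes that rose and 19.8% of all. GTGGCTT, 4th in rank, overlaps it.

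Sites from 5 genes described above are shown with 8 bases of 3′ UTR on either side, the heptamer in capitals, from GENCODE 29 transcripts on GRCh38. They lie at chr6:38676287-38676293 (minus strand) for GLO1, chr10:124397837-124397843 (minus) for OAT, chr11:18407492-18407498 (plus) for LDHA, chrX:135962812-135962818 (minus) for MMGT1 and chr3:172631006-172631012 (minus) for NCEH1.
GLO1: atcccaagGTCTTCAtgatgcca
OAT: tcccatgaGTCTTCAaaaacttt
LDHA: cttgtgtaGTCTTCAactggtta
MMGT1: tataatacTGTGGCTagtctcta
NCEH1: tttagtacTGTGGCTttcttttc

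GTCTTCA and AGTCTTC were counted as a first family and TGTGGCT as a second. MMGT1, NCEH1, CD24, ZDHHC9, GINS1, CCNE2, ME2 and SDC4 held both families in their longest 3′ UTR. RDH11, TRUB1, ALDH18A1, CANX, RAB21 and LOXL2 held the first only and GLUD1, RRM2 and P4HA2 the second only. TAF15, SPTLC1, LDHB, HK2 and TUBB6 held neither. Genes that rose held the words too, AGO2 and RPTOR both, INO80, MYPN and AJUBA the first only, and STK40, TMC7, MIEF1, GXYLT1 and CHD2 the second only. Either family was in 54.6% of genes that fell and in 64.5% of those at least 2-fold lower (91 of 141). It was in 27.8% of genes that rose and in 33.8% of all. Among genes with both families 16.7% fell and 4.24% rose, against 5.69% and 8.15% of genes with neither. The median log2 fold change of these 731 and 7089 genes was -0.05 and 0.04. Genes with a word have longer 3′ UTRs, so the shares are also given by length, again as a description of the genes that ranked the words. Among 3′ UTRs under 1000 bases 20.3% of genes with either family fell, against 6.21% of genes with neither, and above 2000 bases 11.3% fell, against 4.65%.

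**Figure D4:**
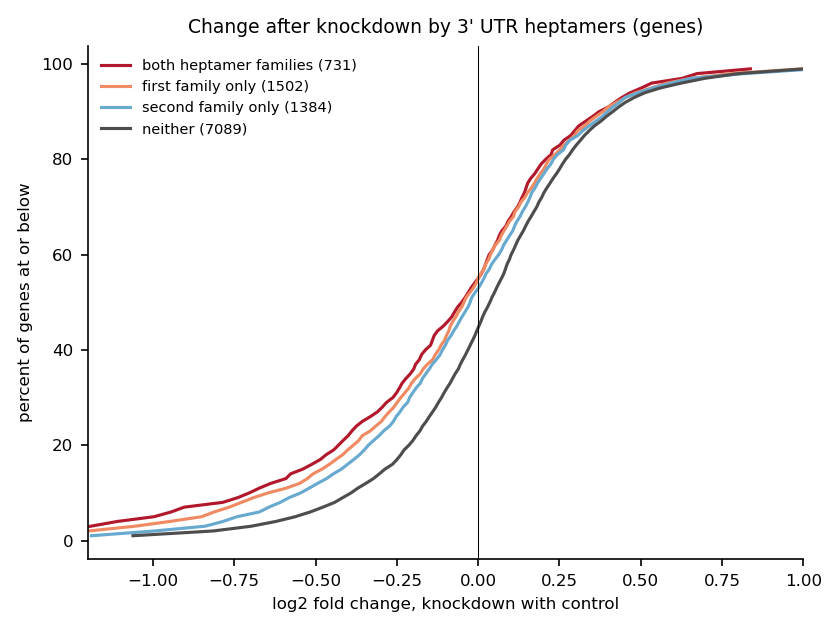
Percent of genes (vertical axis) at or below each log2 fold change after knockdown (horizontal axis) for 3′ UTRs with both heptamer families, the first only, the second only or neither. The 3 curves for genes with a family lie left of the curve for neither below 0, with the largest gap for both, where 16.7% of genes fell against 5.69%.

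NUSAP1 itself holds AGTCTTC and TGTGGCT on opposite strands, close together in its coding sequence. GTCTTCA, the first in rank, was on neither strand of the transcript searched. AGTCTTC also lies in the 3′ UTR of NUSAP1. The stretch lies in exon 7 of transcript ENST00000260359.10 at chr15:41365451-41365467 (plus strand). It is shown with 3 bases on either side because it holds ranked words within the targeted transcript. The first capitals are the reverse complement of AGTCTTC and the second are TGTGGCT.
NUSAP1: gagGAAGACTctcTGTGGCTtct
The same arrangement, with any 3 bases between the words, was in transcripts of 6 of 57133 gene symbols, NUSAP1 among them. The spacing of 3 bases was taken from NUSAP1 after the stretch was found, and other spacings were not counted in other genes. The count therefore does not measure how rare such a pair of words is. A window of 19 bases was set to reach 1 base beyond the stretch on either side. By that choice, the reverse complement of AGTCTTC covers bases 2 to 8 from the 5′ end of the plus strand. For the same reason the reverse complement of TGTGGCT covers bases 2 to 8 from the 5′ end of the opposite strand. This stretch was looked for after the heptamers had been ranked. No source used here gives the sequence of the siRNA, and whether the siRNA spans this stretch, or matches the sites shown, was not tested.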

How the data were processed

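RNA of 9 PANC1 libraries was poly(A)-selected and made into libraries with a dUTP protocol, per the labels' protocols. The table deposited by the authors holds, for each gene and library, a whole-number read count and an FPKM value. Tools listed in the submitters' processing notes are StringTie 1.3.4d, HISAT2 2.0.4 and cutadapt 1.9. Settings, genome build, annotation and any use of strand in counting were not given in the sources used here. FPKM of 0 is written as 0.0001 in the deposited table and was set to 0.

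Genes reaching 1 FPKM in at least 3 libraries were tested on the counts with edgeR 4.0.16 (R 4.3.3), TMM factors and quasi-likelihood tests in 1 model of 3 groups (6 residual degrees of freedom), with Benjamini-Hochberg adjustment over all genes. Standard errors are approximate. For single genes, exact permutation (two-sided, 3 against 3, smallest possible p 0.1) gave p = 0.1 for NUSAP1, LDHA and HIF1A and 0.2 for MYC. Alternatives used DESeq2 1.42.0, limma 3.58.1 on log2(FPKM + 1), TPM, other scalings and filters, and left-out libraries. The test was also run on simulated counts of 12545 genes with the library sizes and fitted spread of these data. It recovered 16.4% of 67 1.5-fold, 59.7% of 67 2-fold and 97.0% of 66 4-fold changes, with 5 false calls among 12345 unchanged genes. Simulated overexpression libraries kept the control means, and no pairing or foreign transcripts were added. In the data 1813 genes passed, many more than were changed in the simulation, so these rates need not hold there.

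Knockdown and control libraries of the same number deviated together from their group means (correlations 0.139, 0.132 and 0.117). The numbers were taken to pair them in the blocked fits only, and the main tests and counts leave the pairing out. For overexpression 1, 2 and 3 the same-number correlations were -0.093, 0 and 0.002 with control and -0.052, 0.251 and 0.069 with knockdown. Libraries of unlike number had -0.081 to -0.047 for knockdown with control, and -0.277 to 0.222 for pairs that include overexpression. Values as large as those of the pairs thus also occurred between unlike numbers. The block in the fit of all libraries covers the overexpression libraries too. The pairing comes from the data and not from the labels.

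Positions in the table overlapped those of GENCODE 29 (GRCh38) for 99.979% of 58394 shared gene IDs. Named genes are the 4 study genes, the 15 largest changes each way without overlap and with a mean FPKM of at least 5, the 8 smallest adjusted p-values each way, up to 3 members a list and the 6 largest opposite changes each way. Not all are named, a few withheld items are not reported here, and those outside the rule are the ones said to be named after their values were seen, with DLAT, PDK2, PDK3, PFKL, AKR1A1 and AKR1B1. Members and lists were chosen with earlier results of these data known. 3′ UTRs were taken from GENCODE 29 on GRCh38.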

Additional observations from a re-analysis of the deposited data

How the results depend on the processing

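The counts of genes that changed after knockdown depended on the test and on the libraries. DESeq2 called 2767 genes (1354 higher, 1413 lower), limma on TPM 1414 higher and 449 lower, and the test without a filter, which tests more genes, 1058 (486 higher, 572 lower). A fit of knockdown and control libraries alone gave 569 higher. At least 2-fold changes numbered 94 with limma on log2(FPKM + 1), where the pseudocount shrinks low genes, and 113 when genes had to reach FPKM 5, so that fewer were tested. With the replicate number as a replicate block 2132 genes passed in the fit of all libraries and 1392 in the fit of knockdown and control alone, and in knockdown with overexpression 6643. In the fit of all libraries the block also ended the call of ALB (adjusted p = 0.0746), and beside KRT18, given above, it changed no other call of a gene named above. In the fit of knockdown and control alone, 31 of the genes examined one by one no longer passed, among them ALB, CDCA8, IFIT1, IFITM1, MT-CO2, MT-CO3 and TUBB6, and 6 newly passed. Leaving out 1 library gave 962 to 1410 genes, 430 to 673 higher, 518 to 810 lower and 206 to 253 at least 2-fold. Of 2 fits chosen after seeing the data, the fit without the libraries rich in hepatocyte transcripts leaves 1 control, control 1, and overexpression 2 beside the knockdown libraries. The other, without knockdown 3 and control 3, called 732 genes (279 higher, 453 lower). No named gene that passed changed sign in any alternative. The share of lower genes with either heptamer family was 50.4% to 64.1% in the alternatives other than the fit with 1 control, which had 1 such gene. No hepatocyte gene reached FPKM 5 in enough libraries, so that list has no median there.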
